A study of Mus musculus
Rattus norvegicus and Rattus norvegicus and Mus musculus with 18 samples.

Results

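The genes described here are 45 genes of DNA replication and S phase, chosen by name from the machinery that copies the genome. They were followed by symbol in 2 gene tables of the same tissue, one of mouse genes and one of rat genes. All 45 were among the 17672 genes of the mouse table and 44 were among the 14876 genes of the rat table, where E2f1 had no row. The tissue came from SRG rats, an immunodeficient host, whose mammary fat pads had received 4T1 cells, a mouse mammary carcinoma line. Mouse genes therefore report on the 4T1 cells and rat genes on the host cells of the same piece of tissue. The labels give the genotype as wildtype and no treatment for every group, and they state neither age nor sex. The groups were 5 lungs of tumor-bearing rats, 5 necrotic cores and 5 non-necrotic rims of primary tumors, all taken on day 27, and as controls 2 normal rat mammary glands without a transplant and 1 pellet of cultured 4T1 cells. Each core has a rim from the same rat (Rat3877, Rat3876, Rat3875, Rat3869 and Rat3867). The lungs came from the first 4 of these rats and from Rat3789. Values of single libraries below follow this order of rats.

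Replication starts with licensing, in which the origin recognition complex, Cdc6 and Cdt1 load the MCM helicase onto origins during G1 and geminin then blocks reloading. Cdc7 kinase, Cdc45, the GINS complex and Mcm10 turn the loaded helicase into an active fork, where primase and polymerase alpha make primers and polymerases delta and epsilon extend them. The clamp PCNA is loaded by replication factor C, and Fen1 and Lig1 join Okazaki fragments. Ribonucleotide reductase, thymidylate synthase and thymidine kinase supply deoxynucleotides. Most of these genes are targets of E2F transcription factors and rise together as cells pass from G1 into S phase, with cyclin E as partner of Cdk2 at that step, so their level in tissue is widely read as a mark of cycling cells.

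Expression is given as the deposited normalized signal, counts scaled per library on the scale of limma's voom, with each species scaled on its own. The scale was not the total count alone. Between lung and rim, the median log2 difference of all rat genes was 0.0197 with it and 0.149 with total-count scaling. Levels of a mouse gene and a rat gene are therefore not set against each other. The tumor and lung libraries held 15346400 to 26669410 mouse reads and 3146720 to 10015352 rat reads. From the rate in the 4T1 pellet, mouse reads would make up a median of 0.544% of a member's rat reads in the lungs, 0.692% in the cores and 0.845% in the rims. In single libraries the share was highest for Pole, at up to 9.89% in a lung, 10.004% in a core and 21.1% in a rim, and in the rims it reached 17.2% for E2f8 and 12.7% for Mcm6. For rat reads counted as mouse no share was estimated. In the normal glands, which hold no 4T1 cells, there were 0.899 to 442 mouse reads per 100 rat reads of a member (median 10.3 over 44 members). The number was over 100 for Rrm2 (442), E2f8 (189), Chaf1b (178) and Mcm5 (114), from few reads, and its part in the mouse values was not tested. The library labelled as lung of Rat3789 stood apart from the other lungs. Rat Sftpc, the surfactant gene of alveolar cells, had a signal of 1.88 there and of 3126 to 5676 in the other 4 lungs, and the 8 alveolar and airway markers summed to 246 in it and to 9857 to 17640 in the others. Its rat Adipoq, an adipocyte gene, was at 61.7 and its Lum, a fibroblast gene, at 513, against at most 2.49 and 26.1 in the other 4 lungs. Its host transcripts thus did not show the tissue of its label. It is kept among the 5 lungs by that label, and the counts of genes called for the lung are also given without it. The 5 epithelial markers of 4T1 cells were all present in mouse reads, with a summed signal of 1874 to 2822 in the lungs, 2276 to 3753 in the cores and 3887 to 4794 in the rims. In bulk tissue, fewer cells of a type and less of an RNA per cell cannot be told apart.

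Mouse and rat genes differed in opposite directions between core and rim. Summed over the 45 mouse genes, the signal was 1674, 2326, 2262, 2255 and 2271 in the cores and 3562, 3370.4, 4457, 3159 and 3015 in the rims. The highest core lay below the lowest rim, and the core was the lower one in 5 of 5 rats. Summed over the 44 rat genes, the signal was 2278, 2585, 2366, 1758 and 2276 in the cores and 1768, 1464, 1278, 1548 and 1758 in the rims. The core was the higher one in 5 of 5 rats, although the lowest core, that of Rat3869, was below the rim of Rat3877. In the lungs the mouse genes summed to 4419.6, 4138, 4448, 4557 and 3650.3 and the rat genes to 1554, 1791, 1690.2, 2122 and 2169, and without the library of Rat3789 their means were 4391 ± 179 and 1789 ± 242 (SD, n = 4). The mouse sum was thus 4243 ± 366 in lung, 2158 ± 272 in core and 3513 ± 567 in rim, and the rat sum 1865 ± 269.7 in lung, 2252 ± 303 in core and 1563 ± 207 in rim (SD, n = 5 each). The opposite directions in core and rim were not put to a test, since the species are in separate tables.

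**Figure D1:**
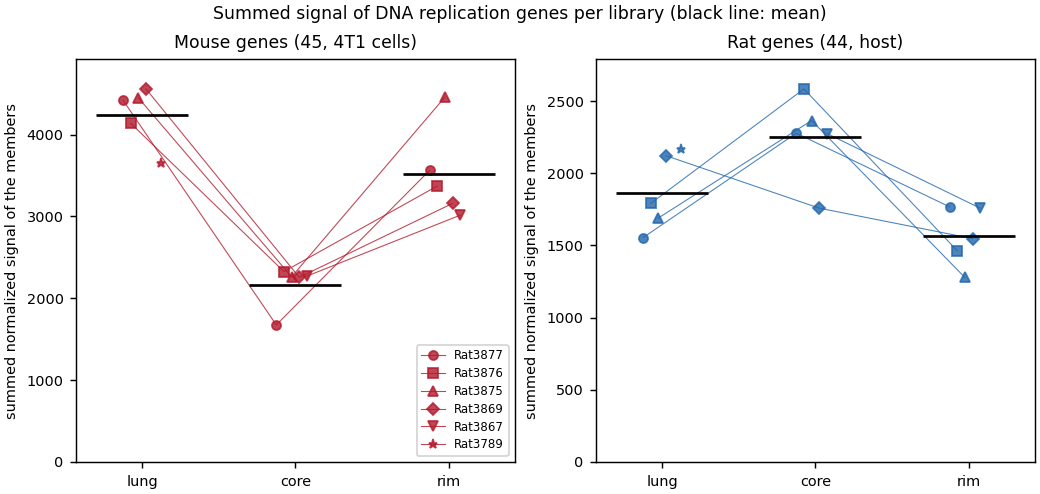
Summed normalized signal of the replication genes (y axis, linear from 0) in each lung, core and rim library, for mouse genes (left) and rat genes (right). Each marker shape is 1 rat, lines join libraries of the same rat and black lines are group means: every line of the mouse panel falls into the core, and all 5 lines of the rat panel are higher in the core than in the rim.

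In the mouse reads of the 4T1 cells, 34 of 45 replication genes were lower in the necrotic core than in the rim, 0 were higher and 11 were not called (limma on log2 signal with the rat as a block, Benjamini-Hochberg adjusted p under 0.05 over 13070 genes). Of all mouse genes tested, 9.63% were called lower. The median log2 difference was -0.71 over the members and 0.01 over all genes. Every one of the 45 estimates was below 0, from -1.62 for Rrm2 to -0.14 for Gins3, and 40 members were lower in all 5 rats. No share over all mouse genes is given for this last count. For 31 members the 5 cores all lay below the 5 rims, which held for 7.25% of all mouse genes. The median difference over the members was -1.20 in Rat3877, -0.54 in Rat3876, -0.99 in Rat3875, -0.50 in Rat3869 and -0.39 in Rat3867. Without Rat3875 the count of lower members was 18, and with any other single rat left out it was 29 to 32. Without Rat3876 and Rat3877 together it was 19. Over all 13070 mouse genes, the lower calls were 1259 in the main run and 620 without Rat3875. They were 724 to 1187 without another single rat and 903 without Rat3876 and Rat3877 together.

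**Figure D2:**
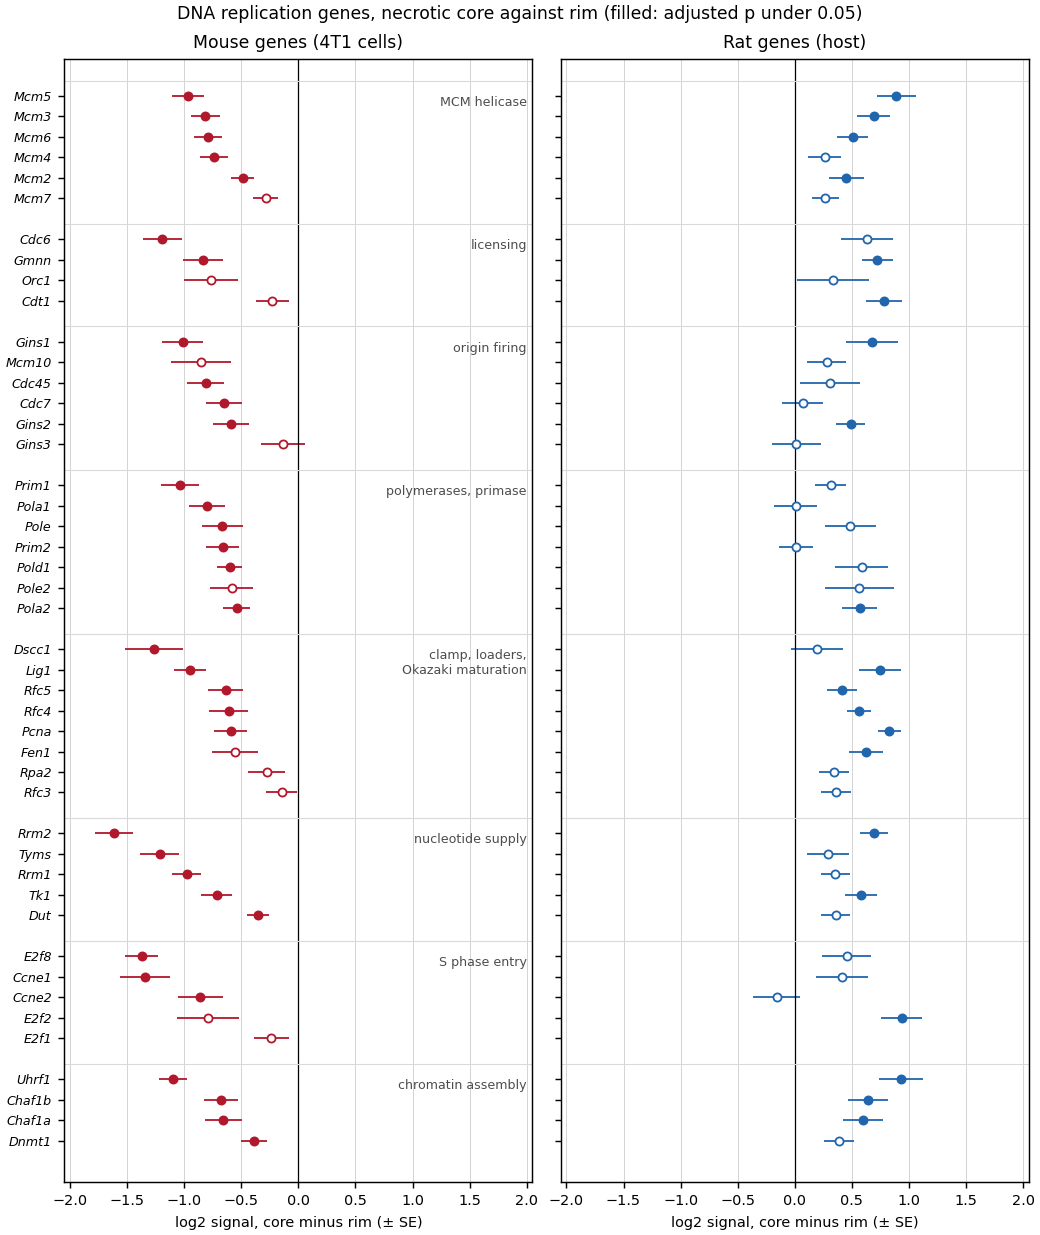
Difference in log2 normalized signal between core and rim (x axis, core minus rim, bars are the standard error of limma) for each replication gene, grouped by role, in mouse genes (left) and rat genes (right). Filled points had an adjusted p under 0.05: 34 mouse genes lie left of 0 and 20 rat genes right of 0, with none filled on the other side.

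By the median of a role, nucleotide supply fell the most (-0.98), and 5 of 5 of its members were called. Rrm2 encodes the small subunit of ribonucleotide reductase, whose level limits the enzyme in S phase (GRCm38 chromosome 12, 24708241 to 24714146). Its signal was 28.4, 56.003, 38.7, 35.6 and 50.3 in the cores and 119.9, 147, 167, 98.3 and 103 in the rims. Each core was well below the lowest rim, a 3.06-fold lower level (log2 -1.62 ± 0.16, adjusted p = 0.000925). Tyms, thymidylate synthase, had 17.5, 29.2, 17.3, 19.99 and 23.6 in the cores and 47.7, 47.8, 63.8, 45.6 and 42.3 in the rims (-1.22 ± 0.17, adjusted p = 0.00321). The groups did not overlap, and the rim of Rat3875 was the highest. Rrm1, the large reductase subunit (-0.98), and Tk1, the cytosolic thymidine kinase (-0.71), were also lower. Dut, which keeps uracil out of DNA, had the smallest difference of the role (-0.35 ± 0.10, adjusted p = 0.0354). Its call was lost without Rat3877 (adjusted p = 0.0817), Rat3875 (0.13) or Rat3867 (0.116) and without the rat as a block (0.0506).

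Of 5 regulators of S phase entry, 3 were lower. E2f8, an atypical E2F that represses E2F targets late in S phase (chromosome 7, 48866429 to 48881596), had 26.3, 42.4, 56.9, 46.1 and 46.3 in the cores and 97.2, 111, 165, 80.6 and 109.97 in the rims. All cores lay below all rims (-1.37 ± 0.15, adjusted p = 0.00113). Ccne1, cyclin E1 (chromosome 7, 38097984 to 38107534), was scarce, with 2.15, 3.59, 2.28, 2.98 and 1.23 in the cores and 5.41, 8.07, 6.4998, 4.96 and 4.76 in the rims. Its highest core was below its lowest rim (-1.34 ± 0.22, adjusted p = 0.00534). Ccne2, cyclin E2, was lower by less (-0.86 ± 0.20, adjusted p = 0.0179) and lost the call without Rat3875 (0.0734). The activator E2f1 averaged 35.3 ± 2.07 in the cores and 42.3 ± 10.3 in the rims (SD, n = 5 each). This difference was not called (-0.24 ± 0.15, adjusted p = 0.302), although each core was below each rim. The rim of Rat3875, at 60.7, stood well above the other rims, which were at 37.1 to 38.6. E2f2 was not called either (-0.79 ± 0.27, adjusted p = 0.0727).

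The 6 MCM2-7 subunits form the core of the replicative helicase, and 5 of them were lower. Mcm5 (chromosome 8, 75109569 to 75128439) had 59.4, 91.2, 81.8, 87.8 and 90.4 in the cores and 159.98, 155, 203, 143 and 139.5 in the rims (-0.97 ± 0.14, adjusted p = 0.00331). Mcm3 had 69.04, 94.8, 87.2, 101 and 90.9 in the cores and 162, 149, 189, 149 and 131 in the rims (-0.82 ± 0.13, adjusted p = 0.0044). Neither gene had a core within the range of the rims. Mcm6 (-0.79), Mcm4 (-0.74) and Mcm2 (-0.49) followed, and Mcm2 lost the call without Rat3875 (0.0556). Mcm7 had the smallest difference of the complex and was not called (-0.29 ± 0.11, adjusted p = 0.105), with 166 ± 18.001 in the cores and 203 ± 23.1 in the rims (SD, n = 5 each).

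Of 4 licensing factors, 2 were lower. The loader Cdc6 (chromosome 11, 98907801 to 98923940) had 11.3, 20.04, 13.5, 17.9 and 16.4 in the cores and 37.2, 35.6, 42.8, 33.3 and 29.3 in the rims, without overlap (-1.19 ± 0.17, adjusted p = 0.00355). Cdt1, which loads MCM with it, had 47.2, 59.3, 73.5, 82.8 and 73.6 in the cores and 83.5, 59.5, 97.9, 80.6 and 70.01 in the rims. Its core was the lower one in 3 of 5 rats, and the difference was not called (-0.23 ± 0.14, adjusted p = 0.297). Gmnn, geminin, which binds and blocks Cdt1 protein, had 12.2, 18.3, 18.6, 22.3 and 16.3 in the cores and 33.4, 29.2, 41.5, 28.3 and 23.8 in the rims (-0.84 ± 0.17, adjusted p = 0.0122). Every core was below every rim, but without Rat3875 the adjusted p was 0.0544. Orc1, the regulated subunit of the origin recognition complex, was not called (-0.77 ± 0.24, adjusted p = 0.0529). No test of the difference between Cdc6 and Cdt1 was made.

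Of the 6 factors of origin firing, 4 were lower. Gins1, a subunit of the GINS complex of the active helicase, had 5.27, 8.74, 8.73, 9.77 and 8.18 in the cores and 15.7, 15.3, 22.6, 15.7 and 12.7 in the rims (-1.01 ± 0.18, adjusted p = 0.00708). The groups were apart. Gins3, of the same complex, had 9.296, 12.5, 11.3, 13.8 and 14.7 in the cores and 15.3, 14.99, 15.02, 11.4 and 10.8 in the rims, which overlapped (-0.14 ± 0.19, adjusted p = 0.653). Mcm10, which helps the helicase start, had 14.8, 27.2, 22.1, 27.8 and 30.9 in the cores and 60.2, 34.6, 56.5, 39.3 and 31.7 in the rims. Its groups were apart by a small margin and it was just not called (-0.85 ± 0.27, adjusted p = 0.0539). Without the rat as a block it passed (0.0187). Cdc45 (-0.81), the kinase Cdc7 (-0.65) and Gins2 (-0.59) were lower. Cdc7 lost the call without Rat3875 (0.0851) or Rat3869 (0.0514). Gins2 lost it without Rat3877, Rat3876, Rat3875 or Rat3867 (0.0641 to 0.111). Of its exonic length, 67.3% is shared with Gse1 on the opposite strand, so its level is uncertain.

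Of 7 polymerase and primase genes, 6 were lower. Prim1, the catalytic primase subunit, had 19.8, 35.1, 32.8, 30.3 and 30.1 in the cores and 64.5, 53.4, 83.8, 54.1 and 48.2 in the rims, with no overlap (-1.04 ± 0.17, adjusted p = 0.0054). Pola1, the catalytic subunit of polymerase alpha, had 22.3, 34.9, 24.3, 21.1 and 33.1 in the cores and 34.1, 50.7, 71.6, 34.1 and 50.7 in the rims. The core of Rat3876 was slightly above the rims of Rat3877 and Rat3869 (-0.80 ± 0.16, adjusted p = 0.0105). Pole (-0.67), Prim2 (-0.66), Pold1 (-0.60) and Pola2 (-0.54) were lower too. Without Rat3875, the adjusted p was 0.108 for Pole, 0.0685 for Prim2 and 0.064 for Pola2. Pole also lost the call without Rat3877 (0.0573) or Rat3869 (0.0766). Pole2, the second subunit of polymerase epsilon, was not called (-0.59 ± 0.18, adjusted p = 0.0559).

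Of the 8 genes of clamp, loaders, single-strand binding and Okazaki maturation, 5 were lower. Dscc1, part of the alternative clamp loader that acts in sister chromatid cohesion, had 2.48, 6.96, 4.84, 5.42 and 4.95 in the cores and 11.1, 9.49, 17.2, 9.91 and 10.002 in the rims (-1.27 ± 0.26, adjusted p = 0.0116). The groups were apart, and without Rat3875, whose rim was the highest, the adjusted p was 0.0518. Lig1, DNA ligase 1, had 36.4, 56.8, 56.8, 46.3 and 62.3 in the cores and 95.4, 98.6, 134, 86.5 and 83.2 in the rims, again apart (-0.95 ± 0.14, adjusted p = 0.00385). The loader subunits Rfc5 (-0.64) and Rfc4 (-0.61) and the clamp Pcna (-0.59) were lower. None of these 3 was called without Rat3875 (0.0666 to 0.135), and Rfc4 was not called without Rat3877, Rat3876 or Rat3869 either (0.0515 to 0.0962). Rfc3, another loader subunit, was not called (-0.15 ± 0.14, adjusted p = 0.486), nor were Rpa2 (0.27) and Fen1 (0.0855). By the annotation, up to 84.2% of the exonic length of Fen1 overlaps Gm10143 and Tmem258 on the opposite strand. Bases shared with both are counted for each. The strand setting of the counting was not given, so the level of Fen1 is uncertain.

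All 4 genes of chromatin assembly and DNA methylation were lower. Uhrf1, which brings the maintenance methyltransferase to newly copied DNA (chromosome 17, 56303321 to 56323486), had 48.4, 81.2, 86.2, 65.8 and 75.5 in the cores and 149.7, 153, 173, 141 and 135 in the rims. The lowest rim was well above the highest core (-1.10 ± 0.12, adjusted p = 0.00142). Chaf1b, a subunit of the histone chaperone CAF-1, had 17.9, 24.9, 24.7, 25.1 and 23.96 in the cores and 30.9, 53.8, 46.7, 31.8 and 28.5 in the rims (-0.68 ± 0.15, adjusted p = 0.0154). The margin between its groups was small, and the call was lost without Rat3876 (0.0508) or Rat3875 (0.065). Chaf1a (-0.66) shares 52.5% of its exonic length with Ubxn6 on the opposite strand, and lost the call without Rat3875 (0.0712) or Rat3869 (0.0581). Dnmt1, the maintenance methyltransferase, was lower by the least (-0.39 ± 0.11, adjusted p = 0.045). Its call did not hold without any one of the 5 rats (0.0568 to 0.156) or without the rat as a block (0.0689).

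Other genes of replication gave the setting for these members. Of 60 further replication genes tested, 24 were lower in the core, 1 was higher and 35 were not called, with a median of -0.26. The largest decreases were Dna2, a nuclease and helicase of Okazaki maturation (-1.52), E2f7, the partner of E2f8 (-1.41), and Pclaf, a PCNA-binding protein (-1.31). Tk2, the mitochondrial thymidine kinase, was the 1 that was higher (0.43 ± 0.11, adjusted p = 0.0294), and its call was lost without any one of the 5 rats (0.0528 to 0.105). Of 20 genes of G2 and mitosis, 20 were lower, with a median of -1.09. The mouse mitochondrial transcripts took 2.08 ± 0.30% of mouse signal in the cores and 1.78 ± 0.11% in the rims (SD, n = 5 each), and their part in these differences was not tested.

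Marker genes of the mouse reads differed between the same libraries. Of the 5 epithelial markers, 4 were lower in the core, namely Krt19 (-1.39, adjusted p = 0.00714), Epcam (-1.20, 0.00723), Krt18 (-0.58, 0.0203) and Krt8 (-0.55, 0.046), and Cdh1 was not called (0.616). Mouse fibroblast markers (7 of 8 in the table) summed to 107 to 445 in the cores and 61.6 to 183 in the rims. Of the 4 tested, Dcn (5.47, 0.000914), Mmp2 (1.80, 0.0363) and Pdgfra (0.92, 0.0292) were higher and Col1a1 was not called (0.609). Mouse macrophage markers (4 of 8 in the table) summed to 3.27 to 6.72 in the cores and 4.59 to 7.76 in the rims, neutrophil markers (2 of 6) to 0.0991 to 2.37 in the cores and 0.0952 to 0.693 in the rims, and endothelial markers (3 of 6) to 1.96 to 2.98 in the cores and 1.55 to 4.504 in the rims. Alveolar and airway markers (3 of 8) summed to 3.096 to 7.59 in the cores and 1.57 to 3.47 in the rims, with Napsa higher (1.17, 0.0488). Skeletal muscle markers (3 of 6) summed to 4.09 to 10.4 in the cores and 12.5 to 15.9 in the rims, with Tnnt3 lower (-1.02, 0.0273). Of the lymphoid list Cd79a had a row, at 0.121 to 0.761 in the cores and 0.3002 to 0.765 in the rims, and no adipocyte marker had one. The part of these differences in the mouse replication genes was not tested.

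In the host cells of the same tumors, 20 of 44 rat members tested were higher in the core than in the rim, 0 were lower and 24 were not called, while 17.5% of all 13559 rat genes tested were called higher. The median log2 difference was 0.47 over the members, and 43 of 44 estimates were above 0, up to 0.94 for E2f2. The 1 estimate below 0 was Ccne2 (-0.16 ± 0.21, adjusted p = 0.575). In 23 members the core was higher in all 5 rats, and no share over all rat genes is given for this count. For 10 members all 5 cores lay above all 5 rims, which held for 11.8% of all rat genes. The median difference over the members was 0.33 in Rat3877, 0.83 in Rat3876, 0.78 in Rat3875, 0.05 in Rat3869 and 0.34 in Rat3867. The count of higher members was 13 without Rat3876, 12 without Rat3875 and 26 without Rat3869, and it was 10 without Rat3876 and Rat3877 together. Over all 13559 rat genes, the higher calls were 2373 in the main run. They were 1910 without Rat3876, 1765 without Rat3875, 2200 without Rat3869 and 1414 without Rat3876 and Rat3877 together.

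Host cell types differed between the same libraries. Rat fibroblast markers (7 of 8 listed genes in the table) summed to 3408 to 11401 in the cores and 32749 to 61023 in the rims. All 7 were lower in the core. Rat macrophage markers (8 of 8) summed to 10998 to 15700 in the cores and 8668 to 12624 in the rims. They moved both ways, with Lyz2 (1.37, adjusted p = 0.00281), Cd68 (1.06, 9.29e-05), Csf1r (0.57, 0.0183) and C1qb (0.42, 0.0246) higher, Cd163 (-3.71, 0.000821), Adgre1 (-1.86, 0.00188) and Mrc1 (-0.81, 0.0154) lower, and C1qa not called (0.26, 0.119). Rat neutrophil markers (6 of 6) summed to 171 to 1204 in the cores and 126 to 174 in the rims. Of 5 tested, 4 were higher in the core and Mmp8 was not called (0.0642). Endothelial markers (5 of 6) summed to 183 to 490.5 in the cores and 280.0 to 533 in the rims. Plvap (-1.06, 0.00304), Emcn (-0.99, 0.00598) and Tek (-0.84, 0.00521) were lower, and Cdh5 (0.232) and Kdr (0.528) were not called. Alveolar and airway markers (8 of 8) summed to 268 to 455 in the cores and 128 to 239 in the rims. Napsa (1.77, 0.000713) and Hopx (0.55, 0.0212) were higher and the other 6 were not called. Adipocyte markers (4 of 4) summed to 123 to 381 in the cores and 43.7 to 467 in the rims, and skeletal muscle markers (4 of 6) to 40.6 to 3545 in the cores and 29.4 to 895 in the rims. Of 7 lymphoid markers, Ncr1 alone had a row, at 0.159 to 3.15 in the cores and 0.297 to 2.63 in the rims. The rat mitochondrial transcripts took 2.84 ± 0.30% in the cores and 2.31 ± 0.21% in the rims (SD, n = 5 each). The part of these differences in the replication genes was not tested.

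Among the rat genes of S phase entry, E2f2 was called. E2f2 is an activator E2F, and its rat signal was 30.1, 27.6, 40.5, 34.8 and 33.4 in the cores and 22.1, 15.5, 12.6, 19.3 and 18.4 in the rims. The lowest core was above the highest rim (0.94 ± 0.18, adjusted p = 0.00455). Ccne1 (0.41 ± 0.22, adjusted p = 0.184) and E2f8 (0.45 ± 0.22, adjusted p = 0.133) were not called.

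In the rat helicase, 4 of 6 subunits were higher. Mcm5 led them, with 133, 144, 145, 91.9 and 138 in the cores and 78.4, 60.1, 51.3, 79.5 and 84.1 in the rims (0.89 ± 0.17, adjusted p = 0.00482). The core of Rat3869 was the lowest by far and still above every rim. Mcm3 (0.69), Mcm6 (0.51) and Mcm2 (0.45) followed. Mcm6 lost the call without Rat3876 (0.0594) or Rat3875 (0.0662), and Mcm2 with edgeR (0.0524), after expected mouse reads were taken off (0.0527), with total-count scaling (0.0528) and without Rat3877, Rat3876, Rat3875 or Rat3867 (0.0867 to 0.141). Taking off expected mouse reads, here and below, also set the scaling to the total count. Mcm4 (0.188) and Mcm7 (0.1) were not called.

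Rat Cdt1 had 24.8, 36.9, 25.3, 31.04 and 35.6 in the cores and 19.2, 15.4, 13.2, 20.7 and 21.04 in the rims, without overlap (0.78 ± 0.15, adjusted p = 0.00514). Its inhibitor Gmnn averaged 42.9 ± 5.23 in the cores and 26.3 ± 5.19 in the rims (SD, n = 5 each), also without overlap (0.72 ± 0.14, adjusted p = 0.00404). Cdc6 was higher in 5 of 5 rats and was just not called (0.63 ± 0.23, adjusted p = 0.0566). Of origin firing, Gins1 and Gins2 were called. Gins1 had 23.8, 27.3, 25.3, 12.1 and 21.01 in the cores and 17.04, 13.4, 8.79, 12.8 and 15.6 in the rims. In Rat3869 its core was the lower one, and its call (0.68 ± 0.23, adjusted p = 0.0479) was lost without any one of the other 4 rats (0.0782 to 0.142), with total-count scaling (0.0526), without the filter on low signal (0.0536), with DESeq2 (0.0512) and after expected mouse reads were taken off (0.0578). Gins2 had the cores above all rims (0.49 ± 0.13, adjusted p = 0.0159) but was not called without Rat3875 (0.0574) or with DESeq2 (0.0565).

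Of 7 rat polymerase and primase genes, 1 was called. Pold1, the catalytic subunit of polymerase delta, had the largest estimate, with 46.03, 49.3, 56.4, 27.6 and 46.3 in the cores and 34.8, 27.8, 20.8, 36.9 and 28.9 in the rims. The core of Rat3869 was below its rim, and the difference was not called (0.59 ± 0.23, adjusted p = 0.0791). Without the rat as a block it passed (0.039). Pola2 was called (0.57 ± 0.15, adjusted p = 0.0195), but not without Rat3876, Rat3875 or Rat3867 (0.0515 to 0.0694), without the rat as a block (0.0554) or with DESeq2 (0.0661). Pola1 (0.01) and Prim2 (0.01) were close to 0.

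Of 8 rat genes of clamp, loaders, single-strand binding and Okazaki maturation, 5 were called. Pcna had 228, 233, 235, 247 and 223 in the cores and 167, 131, 112, 139.8 and 114 in the rims. The cores were tight and all above the rims, a 1.77-fold higher level (0.83 ± 0.10, adjusted p = 0.000565). Lig1 (0.75), Fen1 (0.62), Rfc4 (0.56) and Rfc5 (0.41) were higher as well. Rfc5 lost the call without Rat3876, Rat3875, Rat3869 or Rat3867 (0.0597 to 0.113), without the rat as a block (0.0626) and with DESeq2 (0.105).

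Of rat nucleotide supply, Rrm2 and Tk1 were called. Rrm2 had 73.8, 60.4, 77.1, 50.3 and 84.1 in the cores and 53.2, 36.7, 33.9, 36.3 and 54.5 in the rims, so that the core was higher in 5 of 5 rats although the core of Rat3869 was below the 2 highest rims (0.69 ± 0.12, adjusted p = 0.00333). Tk1 was also higher in 5 of 5 rats (0.58 ± 0.14, adjusted p = 0.0132). In chromatin assembly, Uhrf1 had 85.1, 99.6, 83.5, 53.4 and 93.4 in the cores and 54.8, 42.7, 24.4, 42.9 and 57.5 in the rims (0.93 ± 0.20, adjusted p = 0.00679). Here too the core of Rat3869 was the lowest and within the range of the rims. Chaf1b (0.64) and Chaf1a (0.60) were higher, but both lost the call without Rat3877, Rat3876 or Rat3875 (0.0542 to 0.0846). Chaf1b lost it without Rat3867 (0.0632) and with DESeq2 (0.0537) as well.

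Of 56 further rat replication genes tested, 14 were higher in the core, 2 were lower and 40 were not called, with a median of 0.30. Asf1b, a histone chaperone (0.64), Ccna2, the S phase and G2 cyclin A (0.61), and Rfc2, a clamp loader subunit (0.56), were the largest increases. Tfdp2, a dimer partner of E2F (-0.91), and Rbl2, the pocket protein p130 found in resting cells (-0.54), were lower. Without Rat3876 and Rat3877 together, Asf1b, Ccna2, Rfc2 and Tfdp2 were not called (0.0544 to 0.0884). Of 19 rat genes of G2 and mitosis, 11 were higher and 0 lower, with a median of 0.48.

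**Figure D3:**
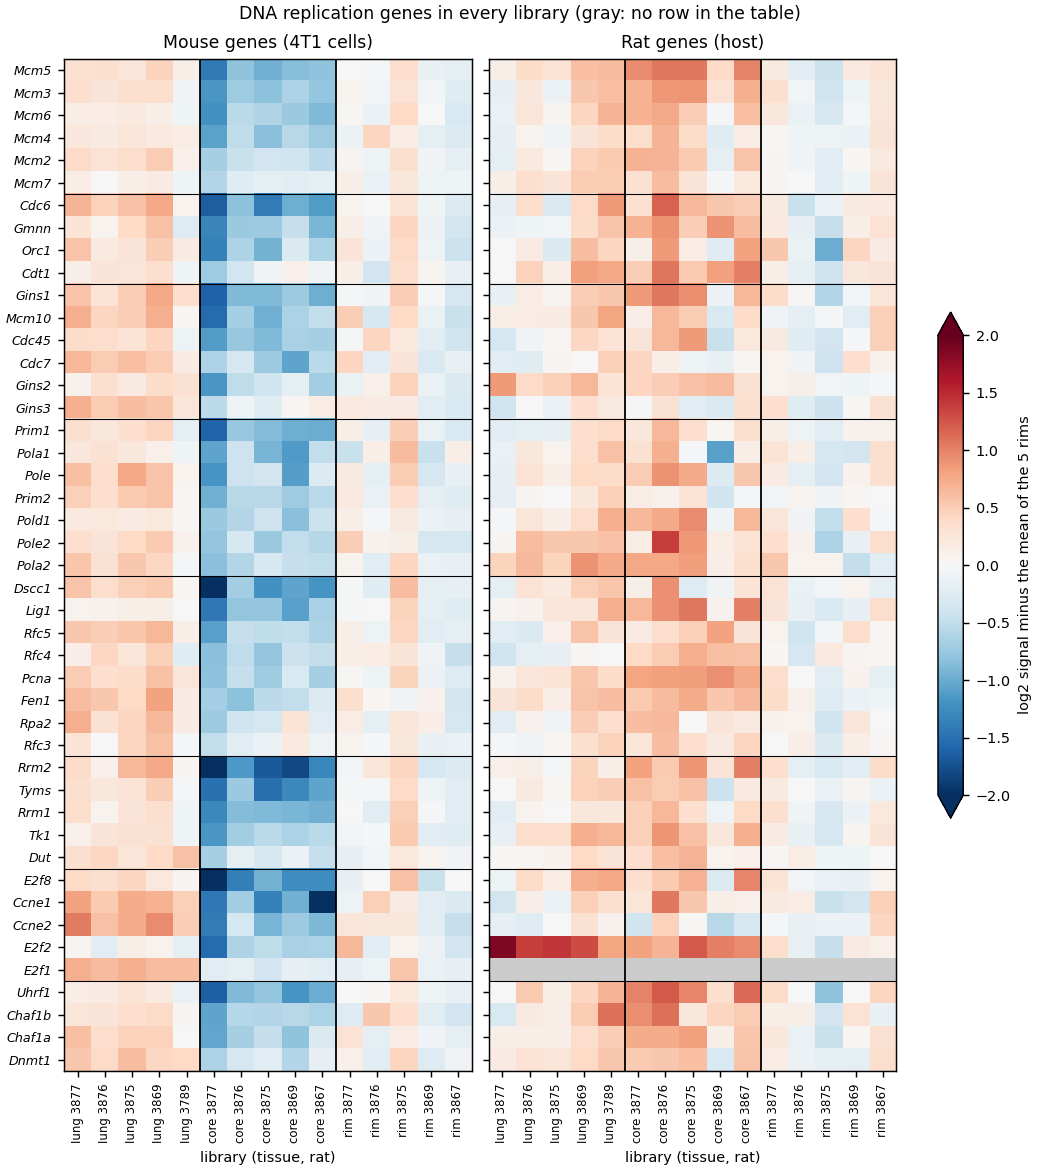
Log2 normalized signal of each replication gene minus its mean over the 5 rims (color, limits at -2 and 2) in every library, with lungs, cores and rims from left to right, for mouse genes (left) and rat genes (right). The mouse cores are below the rims in nearly all rows and the core of Rat3877 is lowest in the sum, while the rat cores other than that of Rat3869 are mostly above the rims and rat E2f2 is above every rim in all 5 lungs.

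The 4T1 cells of the lung had more replication transcripts than those of the necrotic core. Of 45 mouse members tested, 45 were higher in the lung (median 1.03, from 0.36 for Mcm7 to 2.01 for Rrm2), against 17.1% of all 13058 mouse genes tested. Without the library of Rat3789 the count was 45. For 42 members the 5 lungs all lay above the 5 cores, which held for 11.6% of all mouse genes tested. With the other 4 lungs this held for 44 members and 14.2% of all genes. These comparisons share the cores with those of core and rim, and the values are set side by side only. Rrm2 had 162, 134, 196, 210.3 and 129 in the lungs, a level 4.02-fold above the cores (2.01 ± 0.19, adjusted p = 1.66e-05). Ccne1 had 10.2, 8.34, 9.77, 9.45 and 8.11 in the lungs (1.99 ± 0.25, adjusted p = 8.91e-05). Its lowest lung, at 8.11, was well above its highest core, at 3.59. Cdc6 had 56.8, 48.7, 52.9, 59.9 and 37.2 in the lungs (1.70 ± 0.17, adjusted p = 2.24e-05). Mouse markers differed between these groups too. Of 5 epithelial markers, 2 were lower in the lung (Epcam -1.91, Cdh1 -2.38) and 3 were not called. Of 4 fibroblast markers tested, 3 were lower and 1 was not called. The part of these differences in the replication genes was not tested.

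In the other roles the same comparison of lung and core was led by Dscc1, with 16.8, 14.3, 15.6, 16.2 and 11.6 in the lungs (1.66 ± 0.23, adjusted p = 0.000201), Gins1, with 23.9, 19.4, 22.7, 27.4 and 20.5 (1.51 ± 0.17, adjusted p = 4.4e-05), and Prim1, with 74.2, 69.5, 75.5, 80.5 and 51.8 (1.26 ± 0.16, adjusted p = 9.88e-05). Mcm5 had 196, 198, 188, 216 and 172 in the lungs (1.25 ± 0.12, adjusted p = 1.71e-05), and Uhrf1 had 167, 168, 181, 172 and 137 (1.23 ± 0.14, adjusted p = 5.51e-05). In each of these genes every lung was above every core. The 3 members with overlapping groups were Cdt1 (0.40 ± 0.14, adjusted p = 0.0428), Rfc3 (0.40 ± 0.15, adjusted p = 0.0444) and Rpa2 (0.74 ± 0.17, adjusted p = 0.00459). Rfc3 lost the call without Rat3877, Rat3876, Rat3875 or Rat3867 (0.0634 to 0.177), Cdt1 without Rat3877, Rat3876 or Rat3875 (0.0967 to 0.153), and Mcm7 without Rat3877 (0.0715). Of the 60 further replication genes, 37 were higher in the lung and 1 was lower, and of the 20 G2 and mitosis genes 20 were higher. Without the library of Rat3789 these counts were 38, 1 and 20. The largest increases were Dna2 (2.15), Pclaf (1.69) and E2f7 (1.65), and Tk2 was the 1 that was lower (-0.68).

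Against the rim, fewer members were called. The comparison shares the lungs with that of lung and core. Of 45 mouse members, 14 were higher in the lung, 0 were lower and 31 were not called, with 9.91% of all 12970 mouse genes tested called higher. The median was 0.32, and 44 of 45 estimates were above 0. For 5 members all lungs lay above all rims, which held for 6.7% of all mouse genes tested. With the 4 lungs other than that of Rat3789 it held for 11 members and 9.78% of all genes. The count of members called changed when single rats were left out. It was 6 without Rat3877, 3 without Rat3876, 2 without Rat3869, 5 without Rat3867 and 21 without the lung of Rat3789. Over all 12970 mouse genes, the higher calls were 1285 in the main run and 1074, 627, 574, 816 and 1397 in these runs. In the 4 rats with both tissues, the median over the members was 0.34 in Rat3877, 0.31 in Rat3876, 0.04 in Rat3875 and 0.60 in Rat3869. Of 5 mouse epithelial markers, 5 were lower in the lung than in the rim, with Epcam at -3.11 and Cdh1 at -2.54. Of 5 fibroblast markers tested, 1 was higher (Pdgfra, 0.90) and 4 were not called. The part of these differences in the replication genes was not tested.

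The regulators of S phase entry led this comparison. E2f1 had 68.7, 64.5, 67.7, 63.7 and 63.8 in the lungs and 37.2, 38.6, 60.7, 38.03 and 37.1 in the rims. Every lung was above every rim, and 4 rims were close to the level of the cores (0.66 ± 0.13, adjusted p = 0.0053). Ccne2 had 39.4, 28.9, 32.2, 36.96 and 26.99 in the lungs and 22.7, 22.5, 22.5, 16.4 and 13.9 in the rims, without overlap (0.76 ± 0.16, adjusted p = 0.00866). Its call was lost without Rat3869 (0.0536). Ccne1 was higher as well (0.65 ± 0.16, adjusted p = 0.0178), but not without Rat3877, Rat3875 or Rat3869 (0.057 to 0.0825) or in the 4 rats with both tissues as blocks (0.0602). E2f2, with an estimate of -0.04, and E2f8 (0.28) were not called.

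The other 11 called members were higher by 0.33 to 0.53 on the log2 scale. Gins3 had 22.1, 18.96, 20.4, 19.7 and 15.7 in the lungs and 15.3, 14.99, 15.02, 11.4 and 10.8 in the rims (0.53 ± 0.14, adjusted p = 0.021), with the lowest lung just above the highest rim. Dut had 136, 144, 128, 143 and 164 in the lungs and 97.5, 105, 126, 115 and 103 in the rims (0.39 ± 0.09, adjusted p = 0.0118), and the library of Rat3789 was its highest. Cdc6 (0.51 ± 0.14, adjusted p = 0.0236) and Dnmt1 (0.47 ± 0.12, adjusted p = 0.0186), with 325, 293, 345, 298 and 296 in the lungs and 239.8, 194, 302, 188 and 215 in the rims, had overlapping groups. Fen1 (0.50), Cdc7 (0.49), Gins1 (0.49), Rfc5 (0.48), Rpa2 (0.46), Pcna (0.41) and Mcm2 (0.33) were the rest. Without Rat3869, E2f1 and Dut were the 2 members still called, and the other 12 had adjusted p of 0.0536 to 0.182. Without Rat3876, E2f1, Ccne1 and Ccne2 were called, and the other 11 had adjusted p of 0.0529 to 0.14. With the rat as a block in the 4 rats with both tissues, 5 of these members were not called, namely Mcm2 (0.0509), Dut (0.0539), Fen1 (0.0564), Pcna (0.0692) and Gins1 (0.0776). Mcm2 and Fen1 also lost the call with upper-quartile scaling, limma-voom, edgeR and no filter on low signal (0.0529 to 0.0594), and Pcna (0.0508) and Gins1 (0.0516) with edgeR. No polymerase or primase gene was called. The largest of them was Pole, with 92.9, 78.6, 105, 91.5 and 64.7 in the lungs and 69.7, 53.6, 87.1, 48.98 and 55.3 in the rims (0.47 ± 0.17, adjusted p = 0.0646), and it was called without the library of Rat3789 (0.0274) and with the rat as a block (0.0191). Rrm2, the largest of nucleotide supply, was not called (0.39 ± 0.17, adjusted p = 0.133).

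**Figure D4:**
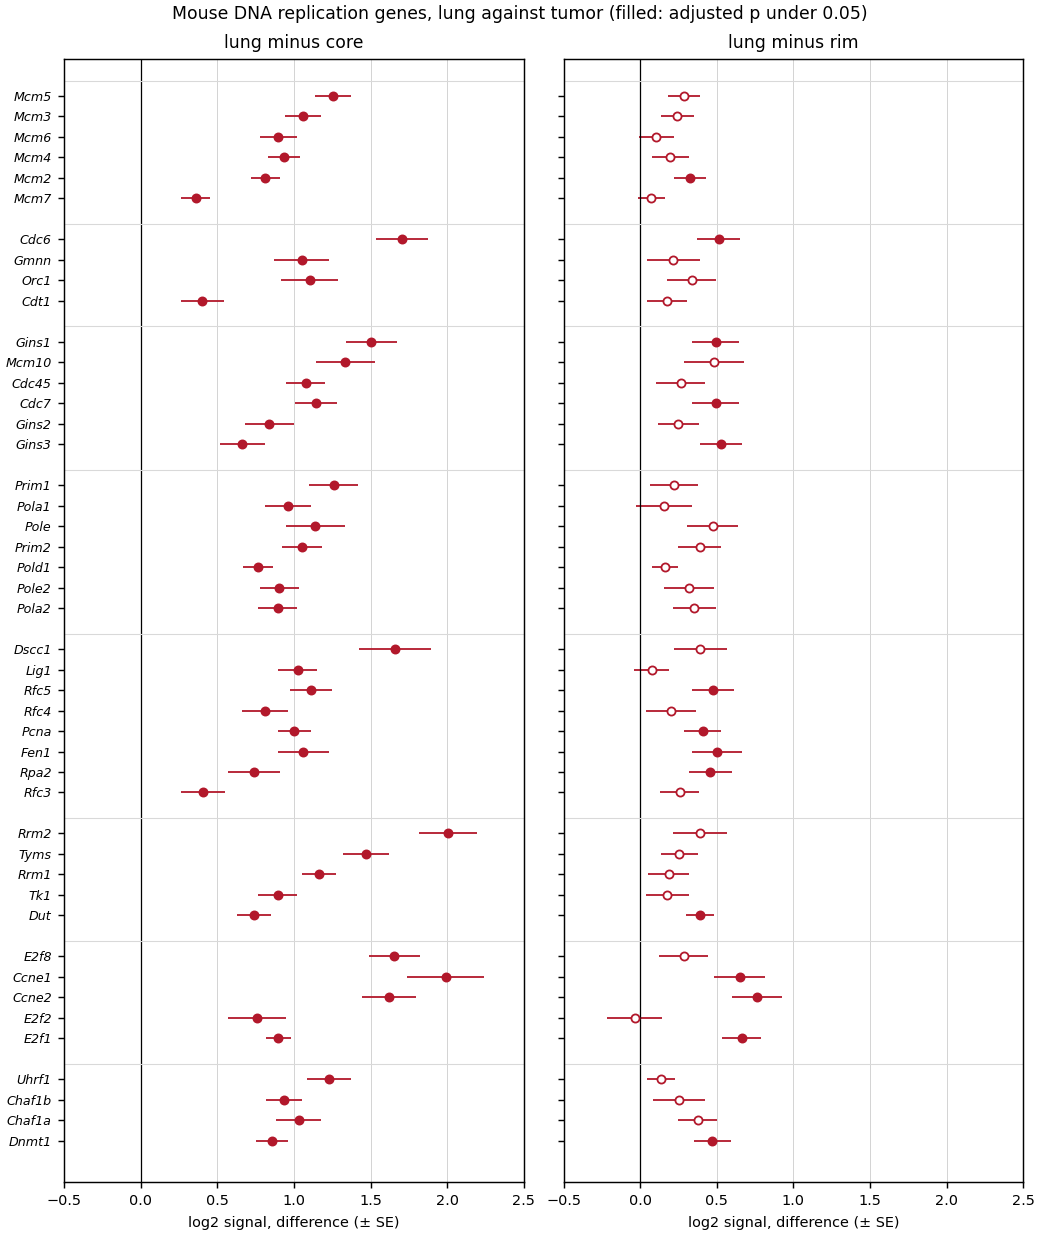
Difference in log2 normalized signal of each mouse replication gene between lung and core (left panel, lung minus core) and between lung and rim (right panel, lung minus rim), with bars for the standard error of limma and filled points for an adjusted p under 0.05. All 45 points of the left panel are filled and right of 0, and 14 of the right panel are filled, with Ccne2, E2f1 and Ccne1 farthest to the right.

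Among 60 further mouse replication genes, 14 were higher in the lung than in the rim and 1 was lower. Dctpp1, which clears modified deoxynucleotides (0.74), Clspn, claspin of the fork (0.63), and Dna2 (0.62) were the largest, and Pold4, a small subunit of polymerase delta, was the 1 that was lower (-0.57). Clspn and Dna2 lost the call without Rat3877, Rat3876, Rat3869 or Rat3867 (0.0517 to 0.168). Pold4 lost it without Rat3877, Rat3876 or Rat3875 (0.0512 to 0.104) and with the rat as a block (0.0689). Of the 20 G2 and mitosis genes, 6 were higher and 0 lower. Without the library of Rat3789, 16 further replication genes were higher and 2 lower, and 9 G2 and mitosis genes were higher.

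In the host cells of the lung, few replication genes differed from the tumor host. The host tissues differ in kind, lung against tumor stroma, and the marker lists differed with them. Rat fibroblast markers summed to 2357 to 6615 in 4 lungs and to 26562 in the library labelled as lung of Rat3789, against 3408 to 11401 in the cores and 32749 to 61023 in the rims. Macrophage markers summed to 11889 to 14522 in the 4 lungs and 29460 in that library, neutrophil markers to 2248 to 5434 and 413, and endothelial markers to 623 to 1556 and 359. Their part in the results was not tested. Against the rim, 4 of 44 rat members were higher, 0 were lower and 40 were not called, close to the 10.5% of all 13841 rat genes tested that were called higher. The median was 0.22. E2f2 had 63.3, 44.9, 46.7, 42.7 and 29.97 in the lungs and 22.1, 15.5, 12.6, 19.3 and 18.4 in the rims. Every lung was above every rim (1.36 ± 0.20, adjusted p = 0.00115), and without the library of Rat3789, the lowest lung, it was called as well (adjusted p = 0.000112). Gins2 had 35.7, 25.7, 27.6, 31.3 and 23.8 in the lungs and 20.7, 21.4, 19.03, 18.7 and 19.2 in the rims, without overlap (0.53 ± 0.12, adjusted p = 0.0104). Its call was lost without Rat3875 (0.0552) or Rat3869 (0.0586). Pola2 (0.64 ± 0.19, adjusted p = 0.0314) was not called with the rat as a block (0.149) or without Rat3876, Rat3875, Rat3869 or Rat3867 (0.0727 to 0.126), and Mcm7 (0.35 ± 0.11, adjusted p = 0.0369) not without Rat3876, Rat3875, Rat3869 or Rat3789 (0.0561 to 0.155). The count of higher members was 3 without the library of Rat3789, 7 without Rat3877, 2 without Rat3876 and 1 without Rat3875 or Rat3869. Over all 13841 rat genes, the higher calls were 1458 in the main run. They were 2137 without the library of Rat3789, 819 without Rat3877, 765 without Rat3876, 586 without Rat3875 and 762 without Rat3869. With scaling to the total count, 10 members and 2435 of all rat genes were higher. The median of all rat genes was then 0.15, against 0.02 in the main run.

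Other members of this comparison were not called. Mcm5 had 75.1, 89.9, 85.1, 106 and 108 in the lungs against 70.7 ± 14.2 in the rims (0.40 ± 0.15, adjusted p = 0.0884). Cdt1 had 17.6, 24.4, 19.3, 31.1 and 30.1 in the lungs against 17.9 ± 3.43 in the rims (0.44 ± 0.20, adjusted p = 0.143). Fen1 (0.39 ± 0.14, adjusted p = 0.0768), Tk1 (0.39 ± 0.17, adjusted p = 0.131) and Uhrf1 (0.35 ± 0.23, adjusted p = 0.298) were in the same range. In Rat3877 the median over the rat members was -0.28, while it was 0.27 in Rat3876, 0.39 in Rat3875 and 0.42 in Rat3869. Of 56 further replication genes 5 were higher, led by Rrm2b, the p53-induced reductase subunit (0.66), Rpa1 (0.40) and the histone chaperone Asf1a (0.40), and of 19 G2 and mitosis genes 1 was higher. Rrm2b lost the call without Rat3877, Rat3876, Rat3875 or Rat3869 (0.0877 to 0.155) and with limma-voom (0.0649). Rpa1 lost it without Rat3876 (0.0749) or Rat3869 (0.0966), and Asf1a without Rat3877, Rat3875 or Rat3869 (0.0518 to 0.084) and with the rat as a block (0.0763). Without the library of Rat3789 the counts were 4 and 1.

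Against the core, 6 of 44 rat members were lower in the lung, 0 were higher and 38 were not called. The share of lower members was close to the 14.9% of all 13579 rat genes tested that were called lower. Of all these genes, 2428 were called higher. The median over the members was -0.24. Rfc4, a clamp loader subunit, had 23.5, 27.2, 27.8, 31.8 and 30.9 in the lungs and 40.99, 44.02, 51.4, 47.1 and 46.5 in the cores, without overlap (-0.71 ± 0.11, adjusted p = 0.000944). Pcna had 139, 156, 159, 193 and 170.3 in the lungs and 228, 233, 235, 247 and 223 in the cores, also without overlap (-0.52 ± 0.09, adjusted p = 0.00191). Gmnn had 23.9, 24.4, 24.8, 33.3 and 38.4 in the lungs against 42.9 ± 5.23 in the cores (-0.59 ± 0.16, adjusted p = 0.0147). Its call was lost without Rat3877 (0.0668) or Rat3876 (0.0773).

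Rrm2 had 44.97, 45.8, 41.3, 57.5 and 46.2 in the lungs against 69.1 ± 13.6 in the cores (-0.54 ± 0.15, adjusted p = 0.0174). It was not called without Rat3877 (0.082) or Rat3875 (0.0972), or in the 4 rats with both tissues as blocks (0.0816). Uhrf1 (-0.58 ± 0.18, adjusted p = 0.0318) and Mcm5 (-0.49 ± 0.15, adjusted p = 0.0254) lost the call without Rat3877, Rat3876, Rat3875 or Rat3867 (0.0573 to 0.134), and Mcm5 with the rat as a block (0.0508). The count of lower members was 2 without Rat3877, 3 without Rat3876 or Rat3875, 13 without Rat3869 and 9 without the library of Rat3789. Over all 13579 rat genes, the lower calls were 2024 in the main run. They were 1252 without Rat3877, 1498 without Rat3876, 1162 without Rat3875, 1781 without Rat3869 and 2320 without the library of Rat3789. Without that library, E2f2 was higher in the lung (0.56, adjusted p = 0.0125), which with all 5 lungs it was not (0.42 ± 0.18, adjusted p = 0.0951). The median over the members was -0.55 in Rat3877, -0.60 in Rat3876 and -0.44 in Rat3875, but 0.35 in Rat3869. Gins1 (-0.46) and Pold1 (-0.30), the largest of their roles, were not called. With the rat as a block E2f2 was called too (0.0293).

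Of 56 further rat replication genes, 3 were higher in the lung than in the core and 6 were lower, and of 19 G2 and mitosis genes 9 were lower. Without the library of Rat3789 the counts were 4 higher and 8 lower, and 10 lower for G2 and mitosis. Tfdp2 (1.22), E2f5 (0.66) and Rbl2 (0.50) were higher. E2f5 lost the call without Rat3877, Rat3876, Rat3875 or Rat3869 (0.06 to 0.157), and Rbl2 without Rat3877, Rat3876, Rat3875 or Rat3867 (0.0602 to 0.0998) and with the rat as a block (0.0866). E2f3, an activator E2F (-0.66), Gins4 of the GINS complex (-0.64) and Nme1, a nucleoside diphosphate kinase (-0.59), were the largest decreases. E2f3 lost the call without Rat3877 (0.0951) or Rat3876 (0.0517) and after expected mouse reads were taken off (0.106). Gins4 lost it without Rat3876 (0.0677) or Rat3875 (0.0729), and Nme1 without Rat3877, Rat3876 or Rat3875 (0.064 to 0.0843).

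The pellet of cultured 4T1 cells gave a level for cells in culture, with 1 library and so no test. Values are CPM, reads scaled to the library's total over the genes that the tissue and control tables of a species share, and a gene was counted as below the pellet where the highest of the 5 libraries was at least 2-fold below it. In the lungs, 0 of 45 members were below the pellet (3.92% of all mouse genes tested). In the cores 29 of 45 were (6.13%), and in the rims 3 were, namely Ccne2, Mcm5 and Rfc4 (3.97%). The median log2 ratio of the members to the pellet was -0.40 in lung, -1.47 in core and -0.75 in rim. Rrm2 had 128 to 217 in the lungs, 27.7 to 56.4 in the cores and 100.3 to 165 in the rims, against 326 in the pellet. Mcm5 had 172 to 223 in the lungs, 57.99 to 91.8 in the cores and 138 to 201 in the rims, against 432 in the pellet. These genes were below the pellet in every tissue library. E2f8 did not follow them, with 114 to 154 in the lungs, 25.7 to 53.5 in the cores and 82.3 to 163 in the rims, against 76.1 in the pellet. Cdc7 was at 38.4 to 57.7 in the lungs, 15.96 to 27.3 in the cores and 28.4 to 46.01 in the rims, against 24.4 in the pellet. The kinase was thus above the pellet in every lung and every rim. Without the library of Rat3789, 0 members in the lungs were below the pellet (4.01% of all genes) and the median was -0.31. With TMM scaling over all libraries, 8 members were below the pellet in the lungs, 36 in the cores and 12 in the rims. No share over all mouse genes is given for this scaling, so these counts are not read against the other genes.

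Normal mammary gland gave a level for host tissue without a tumor, with 2 libraries from another table and again no test. In the rims, 37 of 44 rat members were at least 2-fold above the higher gland value in all 5 libraries (27.2% of all rat genes tested), and in the cores 38 were (23.1%). The median log2 ratio to the gland was 3.01 in core and 2.62 in rim. Mcm5 had 84.7 to 148 CPM in the cores and 46.9 to 80.4 in the rims, against 0.728 and 1.27 in the glands, where it had 15 and 27 reads. Rrm2 had 46.3 to 81.96 in the cores and 31.02 to 53.1 in the rims, against 0.0971 and 0.47 in the glands, from 2 and 10 reads. E2f8 had 0 and 9 rat reads in the glands. The rest of the 7 members that did not pass in the rims were Mcm7, Dut, Rpa2, Gins2, Pold1 and E2f2, beside Pola2, which had 8.17 to 17.3 in the rims against 21.6 and 19.5 in the glands. Pola2 was thus lower in every rim than in either gland. With TMM scaling the counts were 31 in the cores and 29 in the rims, and no share over all rat genes is given for them.

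**Figure D5:**
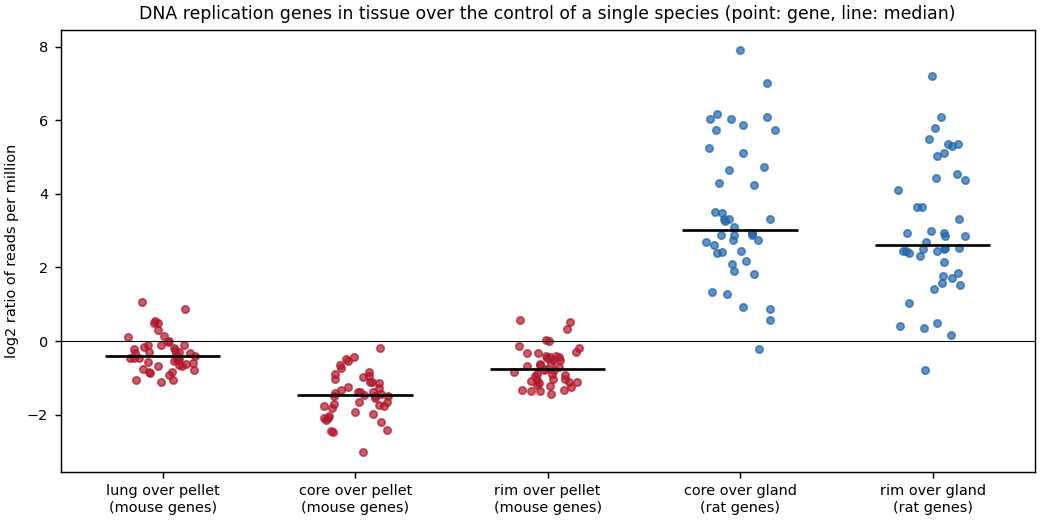
Log2 ratio of the mean CPM in tissue to the single-species control for each replication gene (points) with the median (black line): lung, core and rim over the 4T1 pellet for mouse genes, and core and rim over normal mammary gland for rat genes. Mouse medians are -0.40 in lung, -1.47 in core and -0.75 in rim, and rat medians are 3.01 in core and 2.62 in rim.

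Levels differed widely among the members. Per kilobase of exon, mouse Pcna had the highest signal in the rims, 96.5 ± 19.5, followed by Mcm6 at 60.7 ± 11.1, Mcm7 at 45.8 ± 5.21, Rrm2 at 45.8 ± 10.5 and Dut at 45.4 ± 4.65 (SD, n = 5 each). Ccne1, at 2.23 ± 0.51, was the lowest, after Fen1 at 2.503 ± 0.42 and Dscc1 at 2.61 ± 0.73. The place of Fen1 is uncertain, since up to 84.2% of its exonic length is shared with genes on the opposite strand. Pseudogenes named Pcna-ps1, Pcna-ps2 and Tyms-ps are annotated for Pcna and Tyms, and reads of these genes may be shared with them.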

How the data were processed

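RNA-seq libraries were made with polyA selection, and reads were divided between mouse and rat. Per the submitters' processing notes, Trim Galore, STAR, featureCounts and limma were used with the builds GRCm38 and Rnor_6.0. The strand setting, tool versions and way of dividing reads were not given in the sources used here. Deposited by the authors for tumor and lung libraries was a normalized signal (CPM on the voom scale, each value being a whole number of reads plus 0.5 times 1 constant per library) and, for the gland and pellet, raw counts. All columns mapped to a label, except that the numbers of the 2 gland columns were not matched to label numbers.

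Tests were two-sided, by limma 3.58.1 (R 4.3.3) on log2 signal with a trend, over genes with a signal of at least 1 in at least 5 of the 10 libraries compared, with Benjamini-Hochberg adjustment over all genes tested and a threshold of 0.05. Core and rim were compared with the rat as a block, since the labels name the animal. Correlations between core and rim deviations within a rat ran from -0.18 to 0.24 over mouse genes and from 0.03 to 0.34 over rat genes. Between core and rim of different rats they ran from -0.28 to 0.30 over mouse genes and from -0.32 to 0.18 over rat genes. Over mouse genes the values within a rat thus lay inside the range of different rats. The lung was compared without a block. edgeR 4.0.16 and DESeq2 1.42.0 on the recovered reads, other scalings and filters, and leaving out each rat were alternatives. Leaving out Rat3876 and Rat3877 together was chosen after seeing the data. Library values are given, per comparison, for the 1 or 2 members of a role with the largest absolute log2 difference, and of the further replication genes the 3 largest called differences in each direction are named. Values of other members (Cdt1, Gmnn, Gins3, Mcm10, E2f1 and Dnmt1 among them) were chosen after they were seen. The members and lists were chosen with earlier results of these data known. Nothing in the labels beyond animal numbers tells how tissue pieces were drawn, and p-values measure the spread between these libraries. A planned search for motifs in promoters was not run.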

Additional observations from a re-analysis of the deposited data

Results flagged for a closer look

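In 207 groups of 5 libraries, 17 had 1 library far from the other 4 by Dixon's test, where chance would give about 1 in 20. Among mouse genes in the lung, the library of Rat3789 was low for Mcm3 (148, others 185 to 198), Mcm6 (262, others 305 to 320) and Pold1 (80.5, others 88.8 to 91.6).

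In the mouse cores, that of Rat3877 was low for Mcm7 (135, others 171 to 178), Rrm1 (61.9, others 78.5 to 83.7), E2f2 (5.61, others 10.4 to 11.5), Chaf1b (17.9, others 24.0 to 25.1) and the summed signal of all members (1674, others 2255 to 2326). The core of Rat3875 was low for E2f1 (31.7, others 35.6 to 36.9). In the mouse rims, that of Rat3875 was high for Dscc1 (17.2, others 9.49 to 11.1), Rrm1 (211, others 129 to 152), Tyms (63.8, others 42.3 to 47.8), Tk1 (189.7, others 112 to 131) and E2f1 (60.7, others 37.1 to 38.6).

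Among rat genes, the core of Rat3869 was low for Mcm2 (67.3, others 111 to 125) and Mcm5 (91.9, others 133 to 145), and the lung of Rat3789 was high for Lig1 (25.2, others 15.7 to 18.1).

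Mouse and rat members differed in opposite directions. The median over the 5 rats of the core minus rim difference was -0.54 on the log2 scale for mouse members and 0.34 for rat members, with all 5 rats below 0 in mouse and above 0 in rat. The difference between the species was not tested.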

How the results depend on the processing

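Among the genes checked for it, no estimate changed sign under any alternative run. The genes checked were the largest of each role, the called members and the further genes named. Since they were picked for a large or called estimate in these data, a kept sign was likely beforehand. Other members, such as mouse Gins3 between core and rim, were not checked for this. The counts that moved by over 1.5 times did so mostly when rats were left out. In those runs the number of all genes called changed as well. Leaving out 1 rat at a time gave 18 to 32 lower mouse members in core against rim (main count 34), 12 to 26 higher rat members (20), 2 to 21 higher mouse members in lung against rim (14) and 42 to 45 against core (45). For rat genes of the lung it gave 1 to 7 higher against rim (4), and 2 to 13 lower (6) and 0 to 1 higher (0) against core. Without Rat3876 and Rat3877 together, core against rim gave 19 mouse and 10 rat members. For rat genes of the lung, total-count scaling gave 10 higher members against rim. Removal of expected mouse reads, which also scaled to the total count, gave 8. Against core, total-count scaling gave 3 lower members. The median of all genes was 0.14 with this scaling and 0.03 in the main run. With the replicate block in the 4 rats with both tissues, 1 rat member (E2f2) was higher in lung than core. Without the replicate block, core against rim gave 37 mouse and 21 rat members. TMM scaling put 12 members in rim and 8 in lung below the pellet (3 and 0), without a share over all genes. Precision is limited by 5 libraries a group, 1 pellet and 2 glands, and by 3146720 rat reads in the shallowest library. The causes were not tested.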

Other observations

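In the 2 normal glands, which hold no 4T1 cells, some members had as many or more mouse than rat reads. Rrm2 had 14 and 39 mouse reads beside 2 and 10 rat reads, and Mcm5 had 14 and 34 mouse reads beside 15 and 27 rat reads.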
